A study of Mus musculus with 11 samples.

Results

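The genes described here encode the 5 mouse tektins (Tekt1 to Tekt5) and 3 further proteins of the lumen of axonemal microtubules, Enkur, Nme7 and Efhc2. They were chosen by gene symbol through their Ensembl identifiers and make up 8 of the 23074 genes counted. RNA was taken from decapsulated testes of 5 wild type (WT, Rfx2+/+) and 6 Rfx2-/- mice at postnatal day 21 (P21), all on a mixed C57BL/6, 129/Sv and FVB/N background, and 1 library was sequenced per mouse. The Rfx2-/- mice carried a deletion of exon 7, made in a floxed allele with an ACTB-cre strain that expresses Cre in all tissues, so that the deletion was not restricted to germ cells. Rfx2 itself gave 326 ± 118 CPM (SD, n = 5) in WT and 304 ± 14.6 CPM (SD, n = 6) in Rfx2-/- testes, where CPM are counts scaled to the size of the library. Reads outside the deleted exon do not check the labels.

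The axoneme of cilia and of the sperm tail is built of doublet microtubules around a central pair. Tektins are coiled-coil proteins that form filaments inside the complete tubule of each doublet, and other microtubule inner proteins bind the same luminal wall and stabilise it. RFX2 is a transcription factor of pachytene spermatocytes and early round spermatids, and proteins of its family bind the X box, an inverted repeat found in promoters of many cilia genes.

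Tekt1 (ENSMUSG00000020799) lies on chromosome 11 of GRCm38, from 72344722 to 72362442 on the minus strand. Tekt2 (ENSMUSG00000028845) lies on chromosome 4 from 126322121 to 126325688, on the minus strand, and Tekt3 (ENSMUSG00000042189) on chromosome 11 from 63061654 to 63094964, on the plus strand. Tekt4 (ENSMUSG00000024175) spans 25454615 to 25476602 on the plus strand of chromosome 17, and Tekt5 (ENSMUSG00000039179) 10357948 to 10395490 on the minus strand of chromosome 16. Enkur (ENSMUSG00000026679) was annotated at 21180731 to 21205365 on the minus strand of chromosome 2, Nme7 (ENSMUSG00000026575) at 164304121 to 164437725 on the plus strand of chromosome 1, and Efhc2 (ENSMUSG00000025038) at 17132049 to 17319368 on the minus strand of chromosome X.

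In the study's ChIP-Seq of P21 germ cells, Tekt1, Tekt2, Tekt3, Tekt4 and Enkur were marked as RFX2 targets. The 250 bases before the RefSeq start of Tekt1 to Tekt4 are printed because their levels in Rfx2-/- testes, given below, ranged from far lower (Tekt4) to higher than in WT but short of a call (Tekt2 and Tekt3). They are written 5′ to 3′ on the strand of the gene, from chr17:25471340-25471589 (Tekt4, plus), chr11:63061409-63061658 (Tekt3, plus), chr4:126325689-126325938 (Tekt2, minus) and chr11:72361883-72362132 (Tekt1, minus) of GRCm38.p6. For Tekt1 and Tekt2, which have several RefSeq starts, the most upstream one is shown. The windows of Tekt4 and Tekt1 lie inside the gene spans given above, so their RefSeq starts are downstream of the outermost annotated start. Capitals mark the letters GTTNCC on either strand, the shorter letters GTTGC on either strand, and the X box form GTNNCCNNGGNNAC.
Tekt4: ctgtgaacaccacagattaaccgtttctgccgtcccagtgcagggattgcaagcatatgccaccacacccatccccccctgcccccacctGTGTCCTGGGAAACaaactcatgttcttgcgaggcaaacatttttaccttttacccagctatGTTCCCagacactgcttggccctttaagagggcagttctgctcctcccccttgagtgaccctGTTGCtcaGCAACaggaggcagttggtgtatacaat
Tekt3: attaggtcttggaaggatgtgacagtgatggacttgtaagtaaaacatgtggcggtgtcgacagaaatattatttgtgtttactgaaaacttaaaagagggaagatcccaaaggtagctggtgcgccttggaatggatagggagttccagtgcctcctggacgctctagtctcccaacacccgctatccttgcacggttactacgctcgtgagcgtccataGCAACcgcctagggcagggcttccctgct
Tekt2: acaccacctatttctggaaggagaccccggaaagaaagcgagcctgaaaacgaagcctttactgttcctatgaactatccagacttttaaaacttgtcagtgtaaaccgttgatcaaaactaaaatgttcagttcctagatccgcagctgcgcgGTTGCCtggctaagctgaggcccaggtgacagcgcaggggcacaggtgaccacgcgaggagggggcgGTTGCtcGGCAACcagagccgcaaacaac
Tekt1: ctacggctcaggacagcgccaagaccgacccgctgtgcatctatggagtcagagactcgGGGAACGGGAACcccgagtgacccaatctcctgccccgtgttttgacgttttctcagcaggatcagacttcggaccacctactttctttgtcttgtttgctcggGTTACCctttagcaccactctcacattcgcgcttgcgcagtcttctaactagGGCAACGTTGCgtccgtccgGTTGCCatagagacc

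The X box form, searched with exactly 2 free bases between its arms, was found in Tekt4 alone among the 8 genes. It read GTGTCCTGGGAAAC and began 160 bases before the start, at chr17:25471430-25471443. Of all 27025 genes with a RefSeq window of 300 bases, which adds the 50 bases after the start, 2.16% held this form. GTTNCC was present in the windows of 5 of the 8 genes, Tekt1, Tekt2, Tekt4, Enkur and Nme7, against 48.8% of all genes, and one arm of the X box form of Tekt4 is itself such a match. The shorter letters GTTGC, which overlap GTTNCC wherever GTTGCC occurs and were chosen after the windows were seen, occurred in 7 of the 8 genes and in 38.6% of all genes. Between 20 and 40 bases before a start, a range also chosen afterwards, GTTGC was found in 5 of the 8 genes and in 3.89% of all genes. These 5 genes were Tekt1, Tekt2, Tekt3, Tekt4 and Enkur. Tekt3 had 1 such match, 29 bases before its start, and no GTTNCC. Efhc2 had neither form in its window, and Tekt5 had GTTGC only at 235 bases before its start. In the printed windows GTTGC was closely followed by its reverse complement GCAAC in Tekt4, at 36 and 28 bases before the start. The same held in Tekt2, at 29 and 21 bases, and in Tekt1 the 2 stood in reverse order, at 34 and 29 bases. Such inverted pairs of other spacing were not searched for as an X box. A match of letters is a description of the window and not a binding site.

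Total counts lay between 26925157 and 29769483 in WT and between 22232097 and 27116903 in Rfx2-/- mice, and the difference of the means gave p = 0.0130 in a two-sided exact permutation test. All values below are CPM scaled by TMM, a method that sets library sizes so that most genes do not change. Among the markers of cell types, the mean log2 CPM of 7 pachytene spermatocyte genes ranged from 7.99 to 9.40 in WT and from 9.31 to 9.66 in Rfx2-/- mice. WT replicates 3 and 5 had the lowest pachytene scores, 8.17 and 7.99, against 9.19 to 9.40 in the other WT mice. The mean log2 CPM of 10 round spermatid genes ranged from -0.97 to 5.06 in WT and from 1.30 to 5.63 in Rfx2-/- mice, with summed levels of 9.65 to 423 and 33.2 to 659 CPM. The pachytene list differed at p = 0.0173 in the exact permutation test, and neither list passed 0.05 after adjustment over 9 lists (adjusted p = 0.130 and 0.390). The Sertoli and macrophage lists lay the other way, with Rfx2-/- minus WT differences of -0.32 and -0.51 in mean log2 CPM (exact p = 0.0303 and 0.0433), each with an adjusted p of 0.130. Of 4 markers of multiciliated epithelium, which also makes tektins, Mcidas was too low to be tested. The 4 summed to 12.95 to 108 CPM in WT and 11.4 to 94.1 CPM in Rfx2-/- mice. In WT this sum had the order of the round spermatid scores. It was 108, 54.6, 14.8, 29.2 and 12.95 CPM in replicates 1 to 5, whose scores were 5.06, 3.20, 0.33, 0.81 and -0.97. Among Rfx2-/- mice both were highest in replicate 7. The cells that made these transcripts, and their part in the results, were not tested.

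Within each genotype the 8 genes followed the mice in nearly the same order. WT replicate 1, which had the highest round spermatid score of its group, had the highest level of 8 of 8 genes. WT replicate 5, with the lowest score, had the lowest level of 7, and WT replicate 3 of the remaining 1. Among the Rfx2-/- mice, replicate 7 was highest for 8 of 8 genes and had the highest score, while replicates 9 and 8, with the lowest scores, were lowest for 5 and 3 genes. The spread within WT was wide. The highest WT mouse exceeded the lowest 16.4-fold for Tekt4, 9.58-fold for Tekt2, 6.63-fold for Tekt3 and 2.05-fold for Nme7, whereas among Rfx2-/- mice these ratios were 4.91, 2.05, 1.66 and 1.30. In RNA of whole testis, fewer cells of a type and less RNA per cell cannot be told apart.

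**Figure D1:**
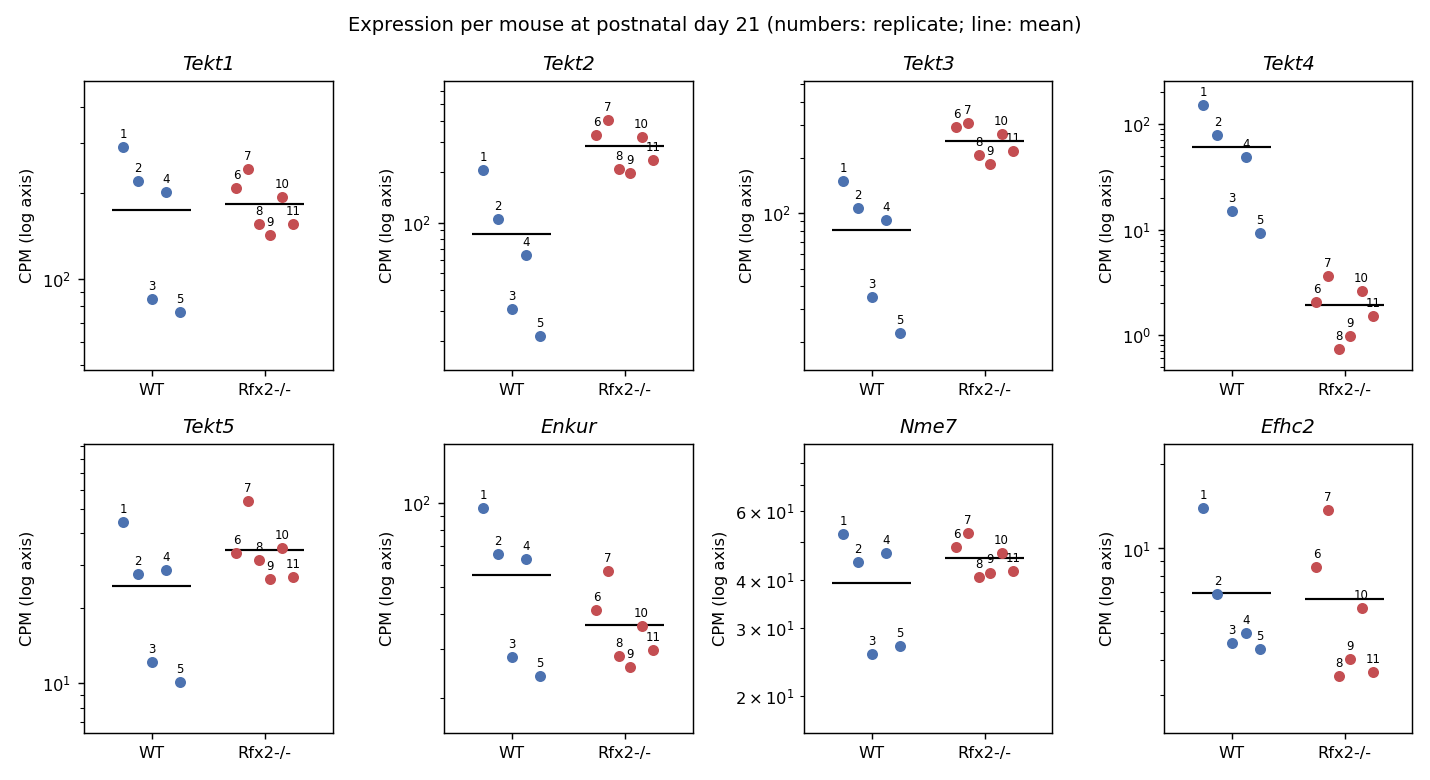
CPM of the 8 genes (y axis, logarithmic) in each WT mouse (blue) and each Rfx2-/- mouse (red), with the replicate number above each point and the mean of the genotype as a line. Tekt4 lay between 9.21 and 151 CPM in WT and between 0.740 and 3.63 CPM in Rfx2-/- mice, Tekt3 was higher in all Rfx2-/- mice than in all WT mice, and the points of the remaining 6 genes overlapped.

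Of the 8 genes, 1 was called lower in Rfx2-/- testes and 0 were called higher in edgeR's quasi-likelihood test. A call needed an adjusted p (Benjamini-Hochberg over all genes tested) of 0.01 or less. Over the 15745 genes tested, 1.94% were called lower and 0.73% higher. At an adjusted p of at most 0.05, 1 of the 8 was lower and 2 were higher, against 8.78% lower and 6.15% higher of all genes. The median log2 fold change, Rfx2-/- against WT, was 0.14 over the 8 genes and -0.05 over all genes tested. All 8 passed the filter on low counts.

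Tekt4, a tektin of the sperm tail, fell in Rfx2-/- testes. It had 151, 79.2, 15.02, 49.0 and 9.21 CPM in the WT mice, given here and below in the order of replicates 1 to 5. The Rfx2-/- mice, replicates 6 to 11, had 2.04, 3.63, 0.740, 0.978, 2.61 and 1.52 CPM. Every Rfx2-/- mouse was below every WT mouse, as for 5.2% of all genes tested, and the lowest WT mouse had 293 reads where the highest Rfx2-/- mouse had 88. The transcript was 31.4-fold lower, with a log2 fold change of -4.97 (SE 0.75, adjusted p = 0.00256, edgeR). Without Rfx2-/- replicate 6 the log2 fold change was -4.99 and the adjusted p 0.0101 in the same edgeR test, just past the limit, and over the 11 fits that each left out 1 mouse it ranged from -5.26 to -4.30. Tekt4 remained detectable in all 6 Rfx2-/- mice, with 16 reads or more against a floor of 3.

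Tekt3 encodes a tektin known from sperm tails. Its levels were 149, 106, 34.9, 91.3 and 22.4 CPM in the WT mice and 295, 306, 205, 184, 268 and 217 CPM in the Rfx2-/- mice. Every Rfx2-/- mouse was above every WT mouse, as for 6.5% of all genes. The fitted difference was 3.05-fold toward higher levels in Rfx2-/- testes (log2 fold change 1.61, SE 0.43), and its adjusted p of 0.0340 from edgeR missed the limit of 0.01.

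Tekt2, a tektin of cilia and sperm tails, had 205, 105, 31.0, 64.1 and 21.4 CPM in WT and 330, 404, 208, 197, 319 and 235 CPM in Rfx2-/- mice. The genotypes overlapped in 1 pair of mice, WT replicate 1 and Rfx2-/- replicate 9. Exons of the noncoding gene Gm12945, annotated on the other strand, overlap those of Tekt2, and Gm12945 was not among the genes counted. The log2 fold change was 1.72 (SE 0.52), or 3.31-fold, and the adjusted p of 0.0485 from edgeR again missed 0.01. Without WT replicate 1 the log2 fold change was 2.35 and Tekt2 was called (adjusted p = 0.00908, edgeR), and in the other fits that left out 1 mouse it was 1.49 to 1.82 with adjusted p of 0.0564 to 0.0981. Both Tekt2 and Tekt3 were called higher by DESeq2's Wald test (adjusted p = 0.00241 and 0.000665) and by limma voom with sample quality weights (adjusted p = 0.00496 and 0.00367). Of all genes, 7.28% were called higher by DESeq2 and 2.33% by voom. The call for these genes thus depended on the test, and their direction did not.

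The remaining tektins did not pass the test. Tekt1, present in most motile cilia and sperm tails, had 290, 221, 85.3, 201 and 76.5 CPM in WT and 207, 243, 155, 142, 193 and 155 CPM in Rfx2-/- mice. The Rfx2-/- values lay inside the WT range, and the log2 fold change was 0.06 (SE 0.33, adjusted p = 0.888, edgeR quasi-likelihood test). Its sign turned negative when total counts were taken as library sizes. Tekt5, a tektin abundant in male germ cells, had 44.7, 27.4, 12.2, 28.6 and 10.1 CPM in WT. In the Rfx2-/- mice it had 33.4, 54.0, 31.3, 26.1, 35.1 and 26.6 CPM, a range that overlapped WT (log2 fold change 0.48, SE 0.36, adjusted p = 0.313).

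Enkur encodes enkurin, a calmodulin-binding protein of sperm tails and cilia. Its levels were 95.7, 65.4, 28.0, 62.8 and 24.0 CPM in WT and 41.3, 57.1, 28.4, 25.8, 36.2 and 29.7 CPM in Rfx2-/- testes. The lower WT mice, replicates 3 and 5, lay among or below the Rfx2-/- mice, and the log2 fold change of -0.60 (SE 0.35) had an adjusted p of 0.207 in edgeR. On the other strand, the start of Thnsl1 lies 359 bases from that of Enkur, and Thnsl1 had 48.9 ± 13.2 CPM (SD, n = 5) in WT and 30.003 ± 2.59 CPM (SD, n = 6) in Rfx2-/- testes. Its log2 fold change was -0.70 (SE 0.16, adjusted p = 0.0215, edgeR), above the limit of 0.01.

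Nme7, a member of the nucleoside diphosphate kinase family that also associates with the gamma-tubulin ring complex, varied least between mice of a genotype. It had 52.6, 44.5, 25.7, 46.8 and 26.9 CPM in WT and 48.6, 52.8, 40.6, 41.7, 46.9 and 42.1 CPM in Rfx2-/- mice. The groups overlapped and the log2 fold change was 0.21 (SE 0.19, adjusted p = 0.393, edgeR). Annotated exons of Nme7 overlap exons of Blzf1 and Atp1b1 on the other strand, and the authors left out reads on exons of more than 1 gene, so part of Nme7 could not be counted. Efhc2, a protein with an EF hand and DM10 domains, was the least expressed of the 8 genes in WT. Its CPM were 13.9, 6.86, 4.60, 4.98 and 4.37 in WT and 8.62, 13.7, 3.51, 4.05, 6.13 and 3.61 in Rfx2-/- mice. The groups overlapped over nearly their whole range (log2 fold change -0.07, SE 0.43, adjusted p = 0.908, edgeR), and the sign turned positive when WT replicate 1 or Rfx2-/- replicate 8, 9 or 11 was left out.

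The fits were repeated with a marker score as a covariate and, separately, with 2 WT mice left out. With the round spermatid score as a covariate, the log2 fold change of Tekt4 was -5.60 (SE 0.31, adjusted p = 4.75e-07, edgeR) and that of Tekt2 1.46 (SE 0.21, adjusted p = 0.000815), and that of Tekt3 was 1.33 (SE 0.25, adjusted p = 0.00517). Enkur was also called lower in this fit, at -0.95 (SE 0.17, adjusted p = 0.00407). Efhc2 was at -0.62 (SE 0.20, adjusted p = 0.0476) and Tekt5 at 0.20 (SE 0.21, adjusted p = 0.514), neither called. In this fit 4.22% of all genes were called lower and 1.66% higher. The score is made from the same libraries. Without WT replicates 3 and 5, a choice made after the marker scores were seen, Tekt4 was at -5.58 (adjusted p = 0.000120, edgeR), Tekt3 at 1.10 (adjusted p = 0.0111) and Tekt2 at 1.18 (adjusted p = 0.0795). In that fit Enkur was at -1.03 (adjusted p = 0.0312), Tekt5 at 0.04 (adjusted p = 0.944), Tekt1 at -0.37 (adjusted p = 0.231) and Nme7 at -0.07 (adjusted p = 0.715), so that the signs of Tekt1 and Nme7 turned. Tekt4 was the only one of the 8 genes called there, where 2.72% of all genes were called lower and 1.06% higher. The lowest WT level of each of the 8 genes was in replicate 3 or 5, and no Rfx2-/- mouse was left out. A move of the log2 fold changes downward thus follows from the choice of mice.

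**Figure D2:**
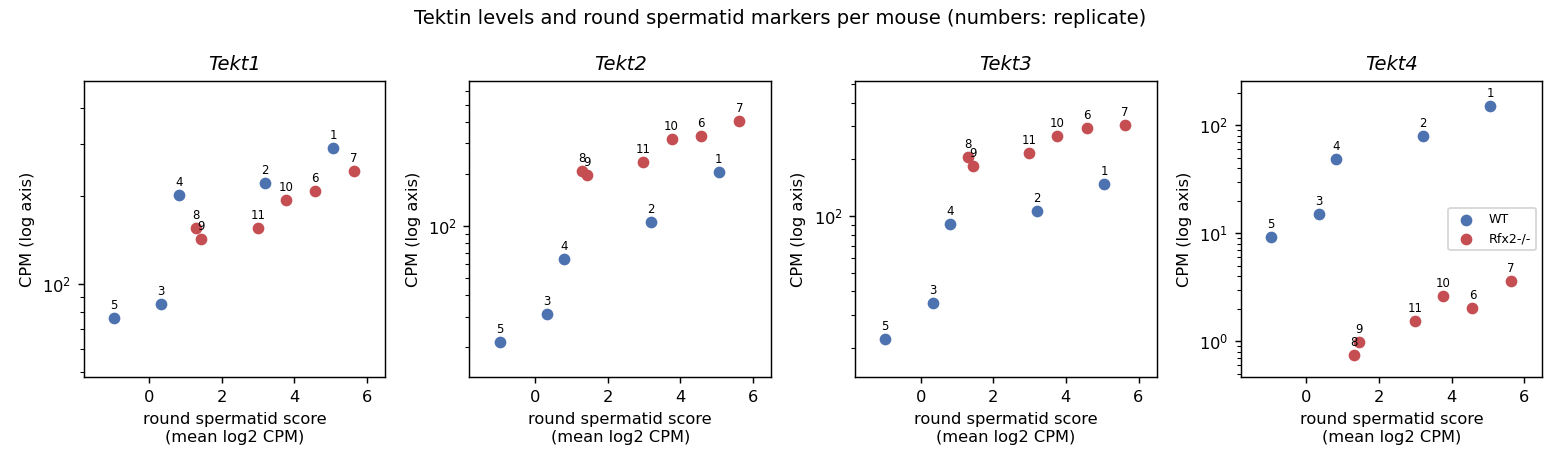
CPM of Tekt1 to Tekt4 (y axis, logarithmic) against the round spermatid score, the mean log2 CPM of 10 marker genes (x axis), with 1 point per mouse, WT in blue and Rfx2-/- in red, labelled by replicate. All 4 genes were highest in the mice of highest score within each genotype, and the Rfx2-/- points of Tekt4 lay below, and those of Tekt2 and Tekt3 above, the WT points of similar score.

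Levels of different genes were compared as CPM per kilobase (kb) of merged exons. In WT, Tekt1 had 107.7 ± 56.6 CPM per kb (SD, n = 5) and exceeded Tekt2 in 5 of 5 mice. Tekt2 (49.0), Tekt3 (46.2), Enkur (46.0) and Tekt4 (39.1 CPM per kb) followed with means closer than their spread, and Tekt2 exceeded Tekt3 in 1 of 5 mice. Nme7 (22.3), Tekt5 (13.6) and Efhc2 (2.72 CPM per kb) came last. In Rfx2-/- testes the order was Tekt2 (162), Tekt3 (141), Tekt1 (113), Enkur (30.4), Nme7 (25.8), Tekt5 (19.0), Efhc2 (2.59) and Tekt4 (1.24 CPM per kb). Each exceeded the next in 6 of 6 mice, except Enkur and Nme7, where the order held in 5. The level of Nme7 per kb may be too low, because reads on exons shared with other genes were left out. In WT, Tekt4 lay below Tekt2 in 5 of 5 mice and below Tekt3 and Enkur in 4 of 5, and in WT replicates 3 and 5 it had 9.68 and 5.93 CPM per kb, below the 14.6 and 15.3 CPM per kb of Nme7. In Rfx2-/- mice it was the lowest of the 8.

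The share of each tektin in the sum of the 5, computed per kb within a mouse, does not depend on the scaling of libraries. In WT mice Tekt1 made up 46.1 ± 7.81%, Tekt3 18.0 ± 1.85%, Tekt2 17.5 ± 3.75%, Tekt4 12.7 ± 4.95% and Tekt5 5.73 ± 0.880% (SD, n = 5). In Rfx2-/- mice the shares were 26.04 ± 1.04% for Tekt1, 32.5 ± 1.45% for Tekt3, 36.8 ± 2.004% for Tekt2, 0.268 ± 0.0965% for Tekt4 and 4.37 ± 0.563% for Tekt5 (SD, n = 6). For Tekt1 to Tekt4 no mouse of one genotype reached the range of the other.

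The Tekt1 share lay between 35.5 and 56.3% in WT and between 24.97 and 27.3% in Rfx2-/- mice. The shares of Tekt2 and Tekt3 were the larger ones in Rfx2-/- mice. For Tekt2 the lowest Rfx2-/- mouse had 34.1% and the highest WT mouse 23.4%, and for Tekt3 these values were 29.7 and 20.1%. The Tekt4 share was 7.08 to 19.3% in WT and 0.136 to 0.397% in Rfx2-/- mice. Each of these 4 differences gave the smallest p that the two-sided exact permutation test allows, 0.00433, adjusted to 0.00541 over the 5 tektins. Without WT replicates 3 and 5 each had an adjusted p of 0.0298 in this test. The test then has fewer splits of the mice, and the genotypes still did not overlap. The Tekt1 difference then was -15.7 instead of -20.1 percentage points, and that of Tekt4 -15.5 instead of -12.4. Those of Tekt2 and Tekt3 were 18.1 and 13.9, from 19.3 and 14.6. In WT replicate 1 the Tekt1 share was 35.5% and the Tekt4 share 19.3%, against 56.3 and 7.08% in WT replicate 5. The Tekt5 share differed at p = 0.0260 in the exact test (adjusted p = 0.0260), with overlapping groups, and did not stay below 0.05 without WT replicate 3, 4 or 5 (adjusted p = 0.0571 in each). The summed tektin level was 256 ± 172 CPM per kb in WT (SD, n = 5) and 435 ± 105 CPM per kb in Rfx2-/- testes (SD, n = 6), with p = 0.0693 in the exact permutation test. The Tekt1 level itself did not pass the test, and its smaller share stood beside larger means of Tekt2 and Tekt3, which missed the limit of 0.01.

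**Figure D3:**
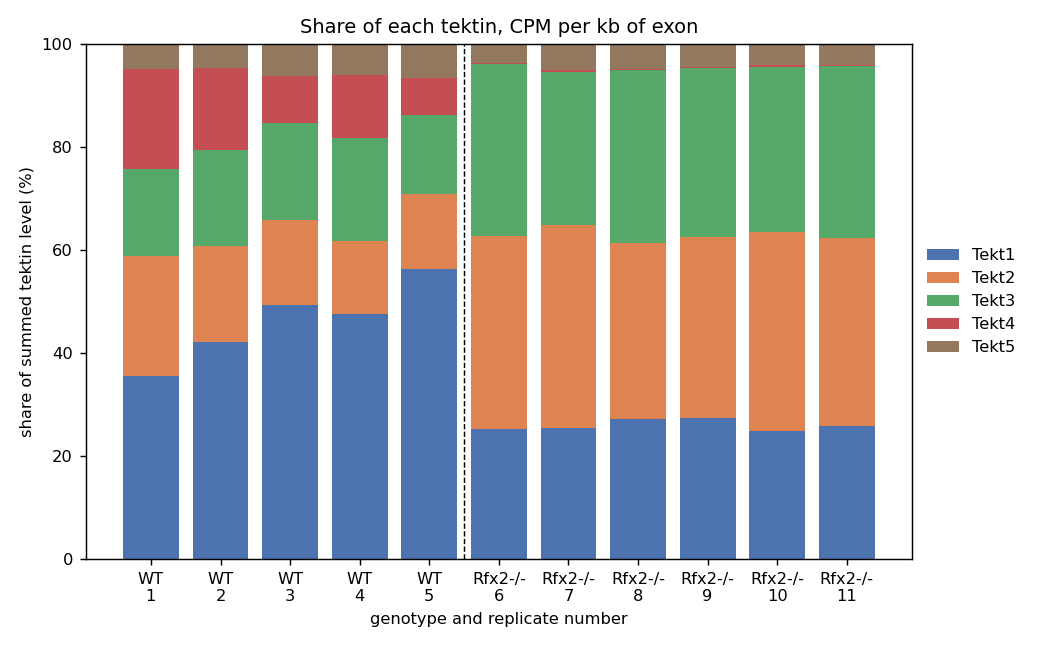
Share of Tekt1 to Tekt5 in the summed tektin level of each mouse (y axis, percent, from CPM per kb of merged exons), with 1 bar per mouse, WT replicates 1 to 5 left of the dashed line and Rfx2-/- replicates 6 to 11 right of it. Tekt1 was the largest part in all WT mice, Tekt2 and Tekt3 were the largest parts in all Rfx2-/- mice, and Tekt4 was at most 0.397% there.

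A list of 27 other genes for microtubule inner proteins was compared in the same fit. Of these, 26 matched a counted gene and 25 passed the filter on low counts. Of the 25, 5 were called lower and 1 higher, and 19 were not called. Their median log2 fold change was -0.03. Over all genes these calls made up 1.94% lower and 0.73% higher. At an adjusted p of at most 0.05 the numbers were 6 lower and 3 higher, against 8.78% and 6.15% of all genes. Without WT replicates 3 and 5, 8 were called lower and 2 higher, against 2.72% and 1.06%. The numbers called lower include 1700012P22Rik, which passed the filter through the WT mice only.

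Among the genes called lower, Cfap161 fell from a range of 24.0 to 97.2 CPM in WT to one of 2.27 to 2.87 CPM in Rfx2-/- mice (25.1-fold lower, adjusted p = 4.61e-05, edgeR). Cfap53, a coiled-coil protein also needed for left-right asymmetry of the body, had 20.4 to 93.8 CPM in WT and 1.51 to 2.81 CPM in Rfx2-/- mice (22.3-fold lower, adjusted p = 0.000134). Spag8, a sperm antigen, was 7.55-fold lower (adjusted p = 0.000247).

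In 1700012P22Rik, the Rfx2-/- mice had 0 reads in 5 libraries and 1 read in the other, and the WT mice had 35 to 651. Set against a floor of 3 counts per library, it was at least 64.8-fold lower (adjusted p = 0.000521, edgeR), and it passed the filter through the WT mice only. Ribc2, a protein of the ribbon of protofilaments in the doublet wall, rose, from a range of 15.2 to 49.6 CPM in WT to one of 91.9 to 128 CPM in Rfx2-/- mice (3.70-fold higher, adjusted p = 0.00166). Efhb and Mns1 were likewise higher in every Rfx2-/- mouse than in every WT mouse, with 2.999-fold and 2.07-fold differences and adjusted p of 0.0250 and 0.0127 in edgeR, above the limit of 0.01. Both were named after their values were seen. In this list, then, genes below all WT mice (6 of 25, 1700012P22Rik among them) stood beside genes above all WT mice (3 of 25). Tekt4 stood beside Tekt3 in the same way. Over all genes tested these shares were 5.2% and 6.5%.

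**Figure D4:**
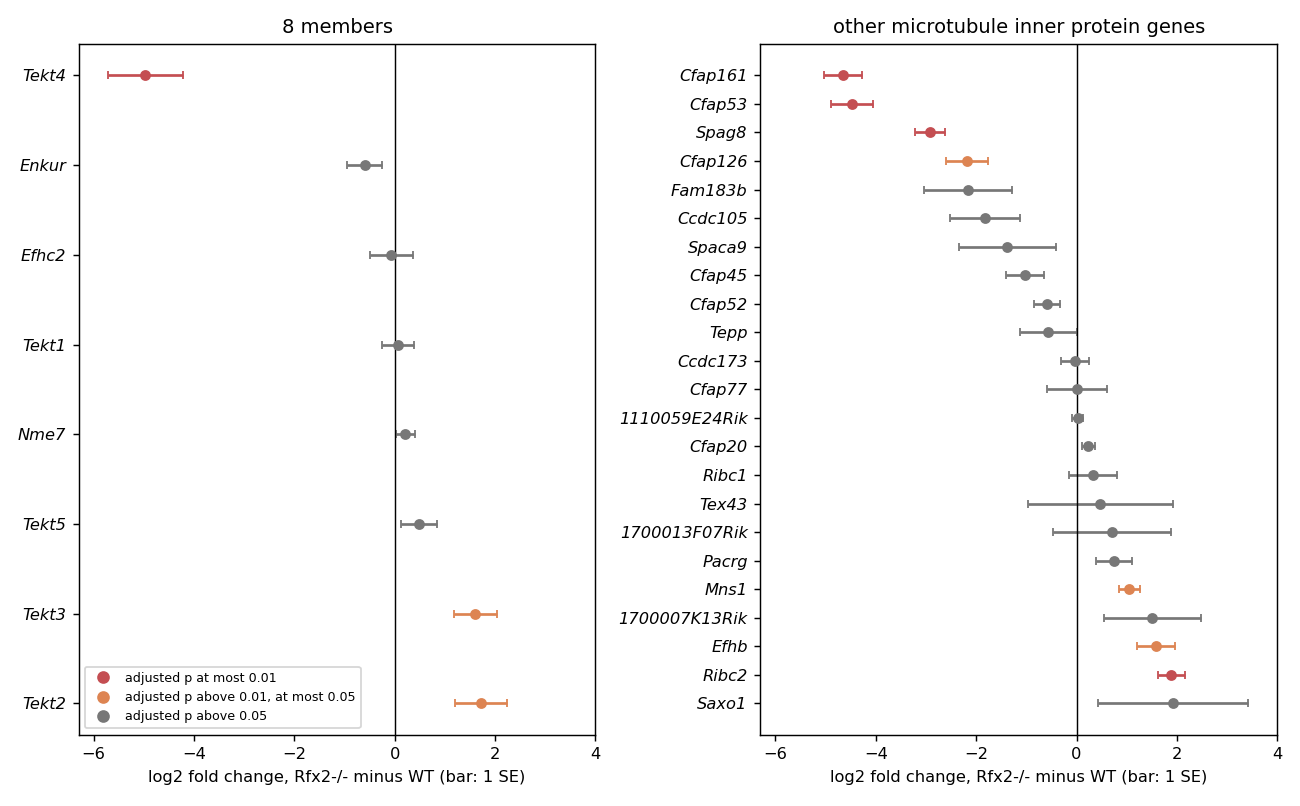
Log2 fold change of Rfx2-/- against WT testes (x axis, bars 1 SE) for the 8 genes (left) and for 23 of the 25 other microtubule inner protein genes tested (right), coloured by adjusted p from edgeR. Tekt4 at -4.97 lay near Cfap161 at -4.65, and Tekt2 and Tekt3 lay near Efhb and Ribc2, while 1700012P22Rik, at the floor in Rfx2-/- mice, and 1 further gene are not drawn.

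The genes most like each of the 8 across the 11 mice were found by Pearson's r of log2 CPM over all genes tested, as a description that mixes the difference between genotypes with that between mice. For Tekt4 they were 1700012B09Rik (r = 0.995), Efcab10 (0.993) and Erich2 (0.989), and these 3 were called lower with log2 fold changes of -2.46, -3.81 and -3.16. For Tekt2 they were Fuz, an effector of planar cell polarity needed for ciliogenesis (0.997), Ttc41 (0.994) and Efhb (0.994). Tekt3 was most like Ssmem1 (0.999), 5330417C22Rik (0.998) and Inpp5k, an inositol phosphatase (0.998). The genes nearest to Tekt2 and Tekt3 had log2 fold changes of 0.75 to 1.58 and adjusted p of 0.0250 to 0.0401, and 0 of these 6 were called.

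The genes nearest to the other members had levels that did not pass the test between genotypes. Genes picked by r over all mice tend to share the genotype difference of their member, here and for Tekt2 to Tekt4. Tekt1 was followed by Ppp1r36 (0.994), Lrrc51 (0.993) and Toporsl (0.992), and Tekt5 by Ccdc171, Acsf3 and Rcc1 (0.986 each). For Enkur they were 1700003H04Rik (0.993), Fbxw10 (0.991) and Zbbx (0.987), for Nme7 the intraflagellar transport gene Ift22 (0.991), Elof1 (0.990) and Limd2 (0.989), and for Efhc2 1700001C19Rik (0.979), Rmdn2 (0.977) and Togaram1 (0.976). The libraries and their depth are shared by all these genes.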

How the data were processed

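RNA-Seq libraries of P21 testes, 5 from WT and 6 from Rfx2-/- animals, were analysed, grouped by the genotype in the labels. The authors deposited raw counts per gene, without normalization. Per the labels, CASAVA 1.8.2, STAR 2.4 and featureCounts 1.4.6 were used with GRCm38. According to the methods, reads with more than 1 position and reads on exons of more than 1 gene were left out, so that overlapping genes lose reads. Total counts were between 22232097 and 29769483. The floor of 3 counts covers counting error only, whereas the SD and SE values also include differences between mice.

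Counts were tested with edgeR 4.0.16 (filterByExpr, TMM, glmQLFit, glmQLFTest, no covariate) in R 4.3.3, with Benjamini-Hochberg adjustment over all 15745 genes, and called at an adjusted p of at most 0.01. The study's methods do not say whether p was adjusted. Log2 CPM used a prior count of 2. edgeR's test reports no SE, so the SE given here is the absolute log2 fold change divided by the square root of the test's F statistic. Shares, marker lists and totals were compared by two-sided exact permutation tests over the 462 splits of the mice in SciPy 1.17.1. Alternatives used DESeq2 1.42.0 and limma 3.58.1, other scalings and filters, and each mouse left out. The tests were tried on simulated data.

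The genes, gene lists, markers and tests were chosen with earlier results of these data known. Named were the 8 genes, the called genes of the other list (6 lowest and 3 highest), the 3 genes most like each of the 8, and genes with a start within 2 kb or overlapping exons. Gene positions are from GENCODE M21 and promoter windows from RefSeq. All 8 symbols matched a window, as did 21 of the 27 in the other list. Separate mice stand behind the replicates. Results for some single genes are not reported here.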

Additional observations from a re-analysis of the deposited data

Results flagged for a closer look

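In groups of 4 to 10 mice, a mouse was singled out where its gap to the next one was large against the range of its group (Dixon's criterion), which chance alone gives for about 5% of the 26 groups examined. Tekt5 had 54.0 CPM in Rfx2-/- replicate 7, against 26.1 to 35.1 CPM in the other Rfx2-/- mice. Efhc2 had 13.9 CPM in WT replicate 1, against 4.37 to 6.86 CPM in the other WT mice. The share of Tekt3 in the summed tektin level was 29.7% in Rfx2-/- replicate 7, against 32.1 to 33.6% in the other Rfx2-/- mice. Both of these mice had the highest round spermatid score of their genotype, and the part of this in the values was not tested.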

How the results depend on the processing

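No paired analysis was run, because the labels used here name no pairs or litters. The study's methods say that littermates of the same age were used where this could be done. Tekt4 stayed lower at an adjusted p of at most 0.01 under every alternative run except without Rfx2-/- replicate 6. Tekt2 and Tekt3 kept their direction in all fits, and Enkur stayed below 0. Tekt5 stayed above 0 but came down to 0.04 without WT replicates 3 and 5. The log2 fold change of Tekt1 turned negative with total counts (-0.052), limma voom (-0.19), the spermatid score (-0.21), without WT replicates 3 and 5 (-0.37) and in 3 fits leaving out 1 mouse (range -0.11 to 0.32). That of Efhc2 ranged from -0.42 to 0.35 when 1 mouse was left out and was -0.62 with the spermatid score, and that of Nme7 was -0.068 without WT replicates 3 and 5. The number of the 8 genes called higher became 2 with DESeq2, limma voom, the spermatid score, an adjusted p of at most 0.05 and an unadjusted p of at most 0.01. It was 0 to 1 when 1 mouse was left out, the 1 being Tekt2 without WT replicate 1. The number called lower was 2 with the spermatid score and 0 to 1 with 1 mouse left out. Of the other list, the number called higher (1) became 3 with DESeq2, limma voom, the spermatid score and both looser limits, 2 with total counts, 2 without WT replicates 3 and 5, and 1 to 3 with 1 mouse left out. The number called lower (5) became 8 with limma voom, 10 with the spermatid score and 8 without WT replicates 3 and 5. With 1 mouse left out it was 4 to 6. Calls over all genes tested also moved. Lower were 305 in the main fit, 682 with limma voom, 665 with the spermatid score and 184 to 393 with 1 mouse left out. Higher were 115 in the main fit, 1146 with DESeq2, 367 with limma voom and 262 with the spermatid score. With total counts 97 were higher, and with 1 mouse left out 45 to 192. The unadjusted limit was not counted over all genes. The difference of the Tekt5 share, -1.36 percentage points, ranged from -1.62 to -1.13 with 1 mouse left out and was -0.86 without WT replicates 3 and 5. The cause of these changes was not tested. Total counts as library sizes moved the median of all genes from -0.05 to -0.22. Whole-testis RNA of 5 and 6 mice with unequal germ cell marker scores limits the precision.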
